A study of Mus musculus with 40 samples.

Results

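The mitochondrial ribosomal protein genes of mouse B cell precursors were followed through 4 developmental fractions in ZIP7 mutant and WT cells. They were taken as every protein-coding gene of the deposited count table whose symbol starts with Mrpl or Mrps followed by a digit, a choice that used no measured value. This gave 78 of the 21958 endogenous genes in the table, 49 named for the large subunit and 29 for the small subunit. Donor bone marrow came from mice homozygous for P198A, a missense allele of ZIP7 (gene Slc39a7, a zinc transporter) made with CRISPR/Cas9, or from WT mice. It was placed in lethally irradiated CD45.1 hosts, and donor-derived cells (CD45.1- CD45.2+) were sorted 8 weeks later. The 4 fractions were FrB (pro-B cells, B220+ CD43+ CD24+ BP1-), FrC, FrD (B220+ CD43- IgM- IgD- late pre-B cells) and FrE (B220+ CD43- IgM+ IgD- immature B cells); the sources used here give no gate for FrC. Each of the 40 libraries was made from 100 cells of 1 mouse by Smart-seq2, a full-length cDNA method, with ERCC spike-in RNA added. There were 5 mutant mice (numbers 4, 5, 8, 9 and 10) and 5 WT mice (1, 2, 3, 6 and 7), each giving 1 library per fraction, and values are listed in this order of mice. Every mouse was an irradiated chimera, so radiation and transplantation are common to both genotypes. Because the allele is missense, the Slc39a7 transcript level does not check the genotype labels.

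Mitochondrial ribosomes translate the few messenger RNAs of the mitochondrial genome, which encode core subunits of the respiratory chain and of ATP synthase. Their proteins are all encoded in the nucleus, made in the cytosol and imported, and they assemble with mitochondrial ribosomal RNA into a large subunit, which forms peptide bonds, and a small subunit, which reads the codons. A few proteins named for the small subunit, MRPS18A and MRPS30, sit in the large one in mammals. The developing B cell passes through a proliferative large pre-B stage and then through resting small pre-B and immature stages.

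Many genes of this kind have promoters without a TATA box and with sites for NRF1, ETS family factors (such as GABP) and YY1. The promoter windows of RefSeq (build GRCm38.p6, 250 bases before to 50 bases after each start) matched 69 of the 78 genes. Each motif was searched on both strands. The ETS motif CCGGAAG was in 26 of the 69, or 37.7%, against 9.93% of all 27025 genes in the RefSeq table. It was in 13.5% of the 16266 of these that are protein-coding genes of the count table, called protein-coding genes below. The NRF1 motif (GCGCA, any base, then GCGC) was in 13, or 18.8%, against 5.19% of all genes and 7.52% of protein-coding genes. The YY1 motif AANATGGCG was in 11, or 15.9%, against 2.76% and 3.86%. Any of these motifs was in 42 members, or 60.9%, against 15.9% and 21.8%, and matches of different motifs overlapped in 1 member. The TATA motif TATAAA was in 5 members, 7.25%, against 15.7% and 14.1%. The E-box CACGTG, the motif of MYC and its relatives, was also in 5 members, 7.25%, against 8.09% and 9.25%. A GC box, GGGCGG, was in 34 members, 49.3%, against 38.2% and 51.4%. The motif shares are descriptions of sequence and carry no test. Shown here, as the 250 bases before the start on the gene's own strand (5′ to 3′), are the promoters of the 3 members whose level changed between FrC and FrD in WT cells, because they moved in different directions. Capitals mark motif matches: in Mrpl43 (chr19:45006443-45006692, minus strand) a GC box and a pair of ETS matches, in Mrpl12 (chr11:120484387-120484636, plus strand) an NRF1 match, and in Mrps18a (chr17:46110754-46111003, plus strand) an ETS match.
Mrpl43: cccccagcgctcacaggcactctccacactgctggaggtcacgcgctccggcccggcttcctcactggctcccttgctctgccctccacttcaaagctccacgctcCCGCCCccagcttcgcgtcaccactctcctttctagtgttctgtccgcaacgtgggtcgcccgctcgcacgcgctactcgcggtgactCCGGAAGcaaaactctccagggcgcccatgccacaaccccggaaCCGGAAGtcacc
Mrpl12: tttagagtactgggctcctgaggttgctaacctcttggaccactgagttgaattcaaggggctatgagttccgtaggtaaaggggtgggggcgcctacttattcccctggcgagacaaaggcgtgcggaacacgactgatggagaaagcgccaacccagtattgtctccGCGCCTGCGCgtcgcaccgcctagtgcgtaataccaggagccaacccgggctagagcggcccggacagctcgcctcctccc
Mrps18a: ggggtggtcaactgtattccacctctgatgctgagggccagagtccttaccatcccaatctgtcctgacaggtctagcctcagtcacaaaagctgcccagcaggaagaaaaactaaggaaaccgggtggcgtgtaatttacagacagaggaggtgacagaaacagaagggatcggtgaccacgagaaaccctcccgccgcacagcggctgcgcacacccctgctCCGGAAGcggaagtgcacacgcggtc
The ETS matches of Mrpl43 lay 56 and 12 bases before its start and that of Mrps18a 26 bases before its start. The NRF1 match of Mrpl12 lay 81 bases before its start. The 2 members that fell, Mrpl12 and Mrps18a, had no match of these 3 motifs in common in the stretch shown, and Mrps18a shared the ETS motif with Mrpl43, which rose.

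Counts assigned to endogenous genes ran from 42111 in the mutant FrE library of mouse 9 to 43372070, with a median of 16474388.5; the second lowest was 1723215, in the mutant FrC library of mouse 9. Levels are given as counts per 1000000 endogenous counts (CPM). Genes with only 1 to 9 counts made up 4.98 to 14.7% of those detected in 30 libraries and 16.4 to 87.9% in the other 10. They were mutant FrB of mice 4, 8, 9 and 10, mutant FrC of mice 5, 9 and 10, mutant FrE of mouse 9, WT FrD of mouse 3 and WT FrE of mouse 7. They are called low-complexity libraries below, by a line at 15% drawn after seeing the data. Values lay close to that line on both sides, at 14.7% in WT FrE of mouse 1 and 16.4% in mutant FrB of mouse 10. The low-complexity libraries bear on the members directly. A median of 17.5 of the 78 genes (5 to 64) were under 10 CPM in them, against 2 (1 to 6) in the other libraries. The 3 highest members held 10.2 to 85.3% of the summed member counts in them, against 8.11 to 13.3%. B lineage genes were detected in every group: the summed level of 6 such genes was lowest, at 338 CPM, in the mutant FrC library of mouse 9, which also had 80318 CPM of 10 erythroid genes. The other group lows ran from 2023 CPM in mutant FrB to 11468 CPM in mutant FrE. Fewer cells of a type and less RNA per cell cannot be told apart in these bulk samples.

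The mitochondrial ribosomal protein genes together took 0.617 to 1.41% of endogenous counts. In FrB the summed level was 8025, 13285, 6146, 7495 and 6759 CPM in the mutant libraries of mice 4, 5, 8, 9 and 10, against 9651 to 11534 CPM in the 5 WT libraries. The 4 mutant libraries below the WT range are the 4 of low complexity, and the remaining one lay above it. In FrC the sum averaged 9856 ± 2373 CPM in mutant and 12002 ± 1504 CPM in WT libraries (SD, n = 5 each). The low-complexity mutant FrC libraries of mice 5, 9 and 10 had 9539, 6704 and 8645 CPM. Those of mice 4 and 8 had 12393 and 11998 CPM, within the WT range of 10145 to 14094 CPM. In FrD the sum averaged 9351 ± 1450 CPM in mutant and 9609 ± 942 CPM in WT libraries. In FrE it averaged 8665 ± 1118 CPM in mutant and 8416 ± 1740 CPM in WT libraries. The genotypes' ranges overlapped in all 4 fractions, and the WT mean was highest in FrC. Each subunit's sum was likewise highest in WT FrC. The large subunit sum was 7096 ± 479, 8190 ± 1021, 6794 ± 629 and 5603 ± 1268 CPM in FrB, FrC, FrD and FrE. The small subunit sum was 3355 ± 236, 3811 ± 483, 2815 ± 386 and 2812 ± 608 CPM. Gene by gene, the WT mean was highest in FrC for 54 of the 78 members, in FrD for 14, in FrB for 6 and in FrE for 4. It was lowest in FrE for 44 and in FrD for 26. No such counts were made over all genes, so these do not set the members apart. Of all genes tested, 9.3% had CPM ranges wholly lower in WT FrD than in WT FrC, and 2.71% wholly higher. In mutant cells the highest mean was in FrD for 29 members, in FrC for 17, and in FrB and FrE for 16 each. The lowest mutant mean was in FrB for 40, in FrE for 16, and in FrC and FrD for 11 each. Libraries not of low complexity numbered 1 in mutant FrB, 2 in FrC, 5 in FrD and 4 in FrE. Fraction and library quality therefore cannot be told apart in these mutant counts.

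**Figure D1:**
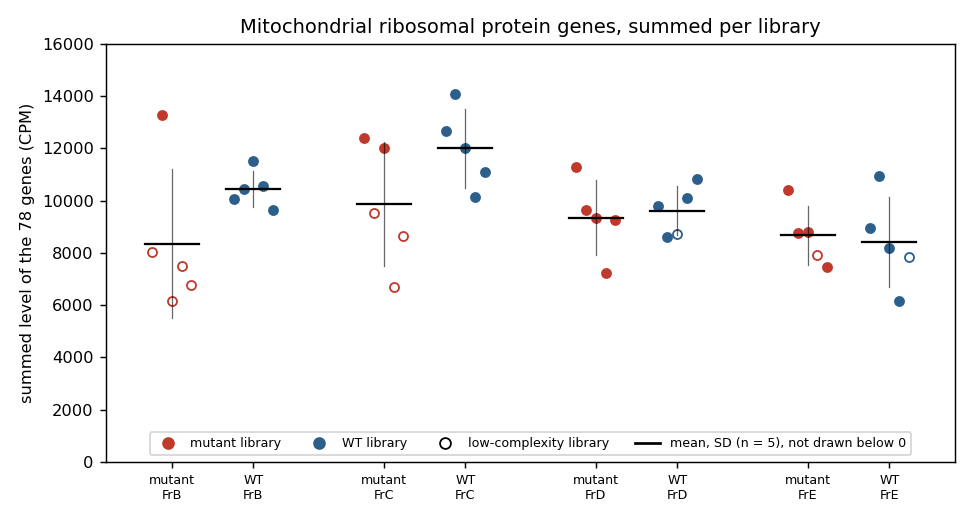
Summed CPM (vertical axis) of the 78 mitochondrial ribosomal protein genes in each library, by fraction and genotype, with the mean and SD of 5 libraries; open circles are low-complexity libraries. WT FrC has the highest mean, 12002 CPM, and the open mutant FrB circles lie below every WT FrB library.

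Levels of different members were compared per kilobase of annotated exon over the 20 WT libraries. The length joins the exons of all annotated transcripts of a gene, so it can exceed that of any 1 transcript. It was 0.607 kb for Mrpl34 and 8.487 kb for Mrpl15, whose mean WT levels were 157.5 and 177 CPM. The order of members and the medians per kb therefore depend on the annotation. The median member stood at 44.3 CPM per kb, with 18 members over 100 and 3 under 10. Mrpl28, a large subunit protein, was highest at 278 ± 72.4 CPM per kb (SD over 20 libraries, range 149.6 to 426). Mrpl34 followed at 259.5 ± 71.7 (151.5 to 427), and Mrpl18, which binds 5S-type RNA in its bacterial form, at 245 ± 74.5 (72.8 to 349). These 3 ranges overlap almost wholly, so their order is not fixed by the data. At the other end stood Mrps5, a protein of the mRNA entry and decoding side, at 4.42 CPM per kb, Mrpl23, which lies at the tunnel exit, at 1.49, and Mrpl53 at 0.573. Mrpl53 (chr6:83109040-83109939, plus strand, GENCODE M21, build GRCm38) had at most 1.60 CPM in any library and shares exon sequence with Gm42688 on the same strand, so reads could be split between them by the authors' counting. It was the 1 member that failed the count filter in every comparison within a fraction or step, which leaves 77 tested there. Mean levels per kb were 0.573 to 278 in the large subunit (median 50.5) and 4.42 to 197 in the small subunit (median 31.9). Exon sequence was shared with another annotated gene by 33 of the 78, antisense for 28 and on the same strand for 8; the sources used here do not give the strand setting of the counting. Members named below that share it on the same strand include Mrps6 (Gm49711 and Slc5a3) and Mrpl33 (Gm43809). Those that share it antisense include Mrps25 (Nr2c2), Mrps18b (Gm16279) and Mrpl49 (Syvn1).

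**Figure D2:**
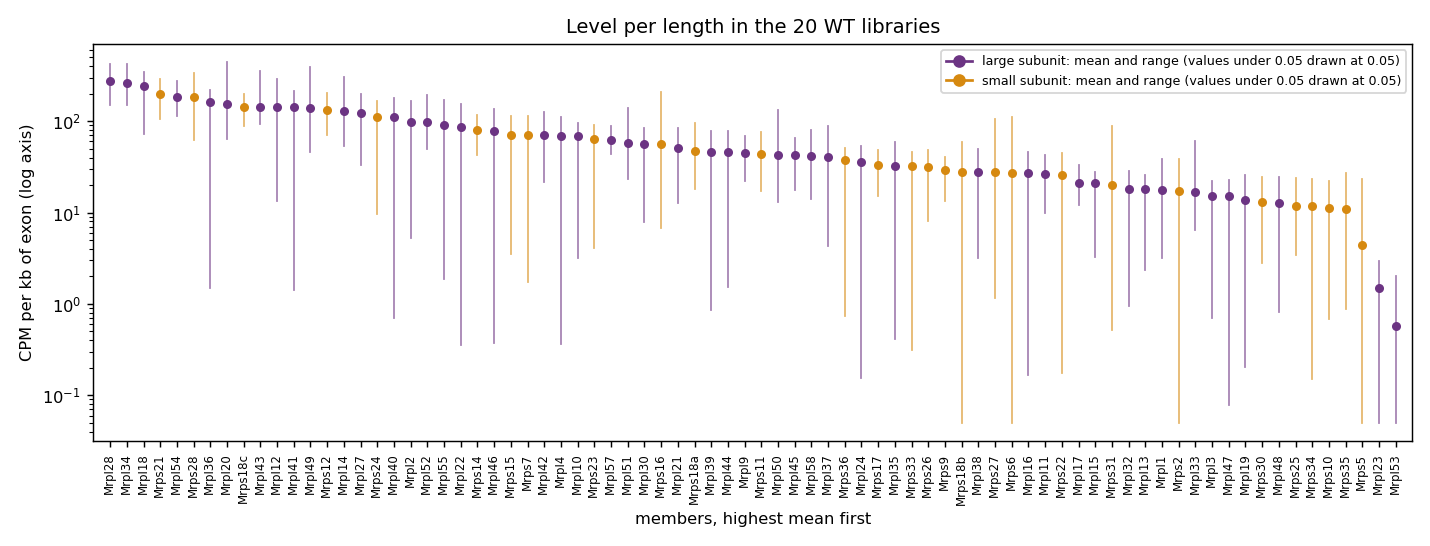
Mean level per kb of exon (log axis, CPM per kb) of each of the 78 genes over the 20 WT libraries, with lines from the lowest to the highest library; purple is the large and orange the small subunit. From Mrpl28 at 278 to Mrpl53 at 0.573 CPM per kb, neighbouring members' ranges overlap.

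The 3 Mrps18 paralogs, which descend from 1 bacterial S18 protein and take different places in the mitochondrial ribosome, stood at unlike levels. Mrps18c averaged 144 CPM per kb over the WT libraries, Mrps18a 47.1 and Mrps18b 28.1. Across FrB, FrC, FrD and FrE in WT cells, Mrps18a was at 189 ± 36.6, 261 ± 59.4, 96.0 ± 20.6 and 150.1 ± 80.8 CPM. Mrps18b was at 81.9 ± 25.4, 83.3 ± 22.6, 29.8 ± 19.2 and 39.8 ± 28.8 CPM. Mrps18c was at 174 ± 19.3, 175 ± 31.3, 142 ± 18.7 and 129 ± 36.5 CPM. Mrps18a and Mrps18b thus had their lowest WT means in FrD and Mrps18c in FrE. In mutant cells Mrps18b showed the widest scatter of the paralogs: its mutant FrB libraries held 0.482, 81.5, 1.61, 0.741 and 33.7 CPM, against 69.0, 124, 82.1, 78.9 and 56.1 CPM in WT FrB. The mutant libraries below the WT range, of mice 4, 8, 9 and 10, are those of low complexity. That of mouse 5, at 81.5 CPM, lay within it.

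Spread between mice was described by the coefficient of variation of the members that averaged at least 10 CPM in a group. The median member varied by 83.1% in mutant FrB and 16.7% in WT FrB, by 74.3% in mutant FrC and 16.8% in WT FrC, by 28.3% in mutant FrD and 50.7% in WT FrD, and by 32.4% in mutant FrE and 55.8% in WT FrE. Without the low-complexity libraries it was 12.7% in mutant FrC (2 libraries left), 22.2% in WT FrD, 26.8% in mutant FrE and 33.6% in WT FrE; mutant FrB keeps 1 library and gives no value. The mutant FrC library of mouse 9 had 64 of the 78 members under 10 CPM and held 85.3% of its member counts in its 3 highest members.

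**Figure D3:**
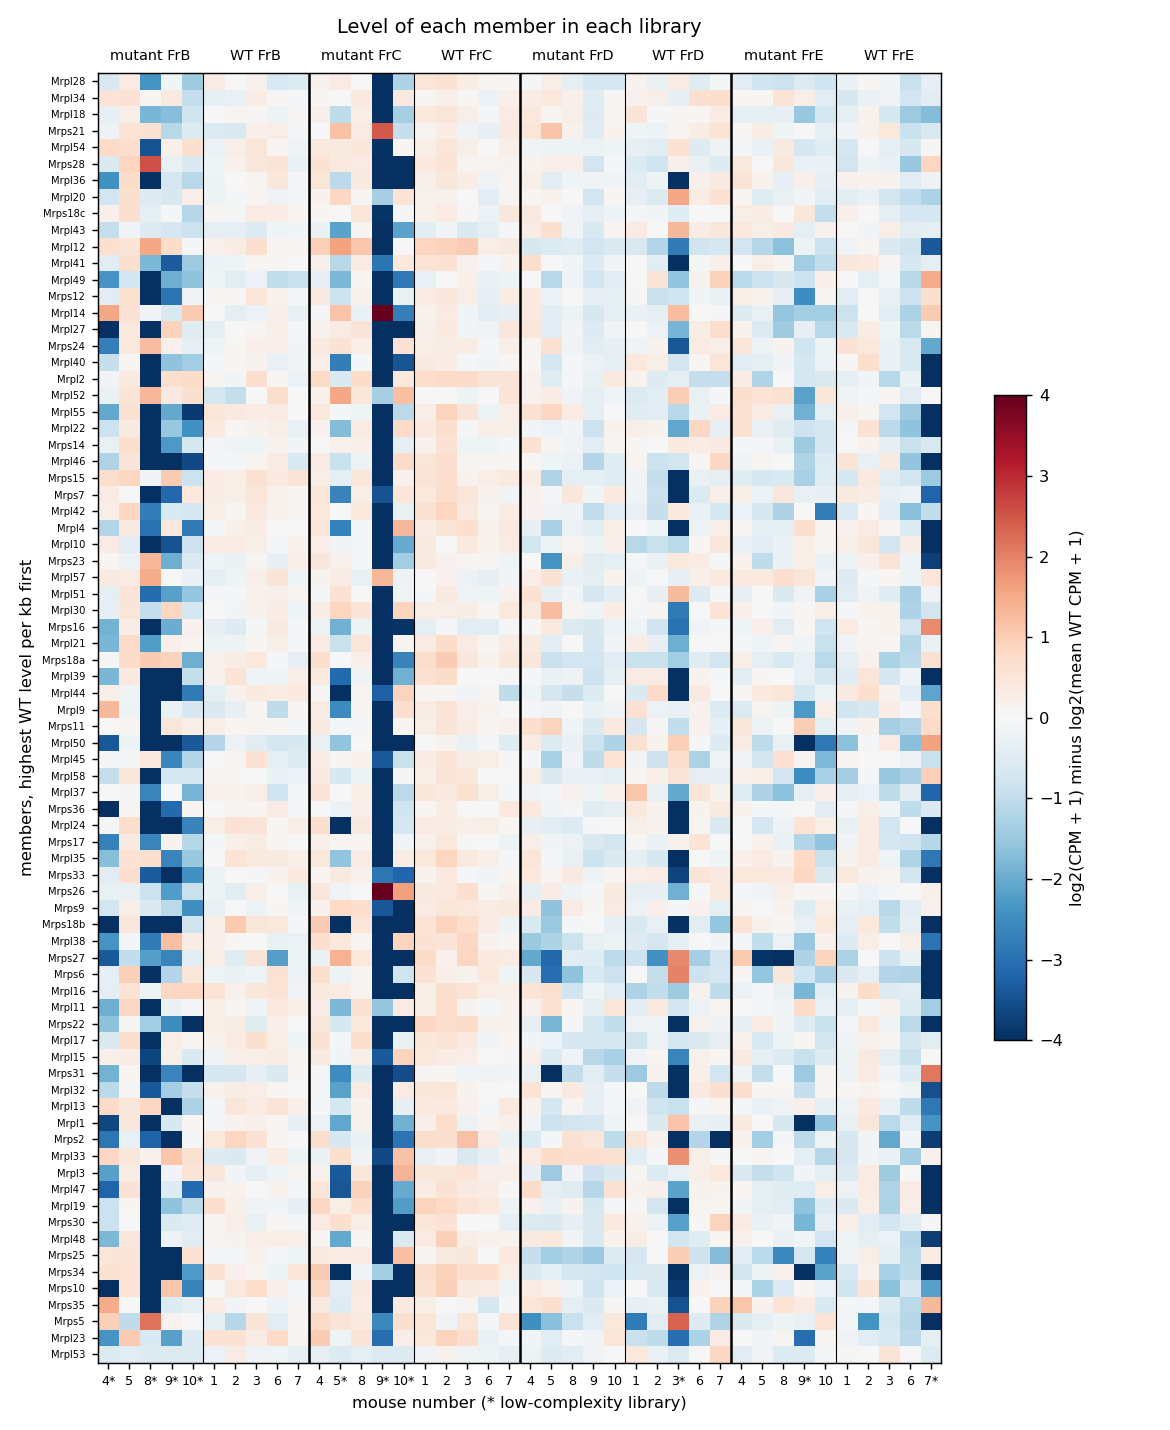
Level of each of the 78 genes (rows, highest WT level per kb first) in each of the 40 libraries (columns, mouse number, asterisk for low complexity), as log2(CPM + 1) minus log2 of the mean WT CPM + 1. The dark blue columns are low-complexity libraries, and mutant FrC mouse 9 is the darkest, with Mrpl14, Mrps26, Mrps21 and Mrpl57 above the WT mean.

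From FrC to FrD 3 members of the mitochondrial ribosome changed in WT cells by edgeR's quasi-likelihood test (Benjamini-Hochberg adjusted p under 0.05). Mrpl12 and Mrps18a fell and Mrpl43 rose. These are 3 of 77, against 5.23% of all genes tested (2.95% higher and 2.28% lower). The median member changed by -0.17 on the log2 scale, against 0.09 for all genes, with 26 members above 0 and 51 below, and 7 had an unadjusted p under 0.05. For unadjusted p and for direction, no share of all genes is given here or below. Those counts therefore do not set the members apart from other genes.

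Mrpl12 (chr11:120484613-120489065, plus strand) encodes a stalk protein of the large subunit, the part that recruits translation factors. It had 142, 95.4, 30.5, 126 and 134 CPM in WT FrD of mice 1, 2, 3, 6 and 7, against 401, 411, 441, 265 and 283 CPM in WT FrC. All 5 mice were lower in FrD and the groups did not overlap. The log2 fold change was -1.58 ± 0.42 (SE, edgeR adjusted p = 0.0267). Antisense to it lies Gm16755.

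Mrps18a (chr17:46110986-46128910, plus strand) had 93.0, 93.7, 66.1, 123 and 104 CPM in WT FrD, against 282, 350.1, 239, 192 and 240.0 CPM in WT FrC. It too was lower in FrD in 5 of 5 mice with no overlap. The log2 fold change was -1.21 ± 0.35 (edgeR adjusted p = 0.0463).

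Mrpl43 (chr19:45004829-45006442, minus strand), a large subunit protein, had 272.5, 221, 539, 267 and 301 CPM in WT FrD, against 164, 202, 143, 167 and 208 CPM in WT FrC. It was higher in FrD in 5 of 5 mice with no overlap, and mouse 3 stood far above the other 4. The log2 fold change was 1.20 ± 0.30 (edgeR adjusted p = 0.0203). Mrpl43 overlaps exons of Twnk, the mitochondrial DNA helicase, on the opposite strand; the log2 fold change of Twnk was 1.14 ± 0.95 (edgeR adjusted p = 0.572).

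None of the 3 calls held with the mouse as a replicate block, where edgeR adjusted p was 0.0609 for Mrpl12, 0.0881 for Mrps18a and 0.0615 for Mrpl43. Leaving out mouse 1, 2, 3 or 6 ended the calls of Mrpl12 (edgeR adjusted p 0.0800 to 0.133) and Mrps18a (0.0666 to 0.223), and leaving out mouse 1, 3 or 6 ended that of Mrpl43 (0.0524 to 0.122), whose log2 fold change was 0.68 without mouse 3. Without the low-complexity WT libraries (FrD of mouse 3 and FrE of mouse 7) all 3 were called in edgeR, with log2 fold changes of -1.40 ± 0.24 (adjusted p = 0.000316), -1.20 ± 0.28 (0.00522) and 0.73 ± 0.19 (0.0104), and the count of called members was 7, against 16.1% of all genes. The other 4, named after their values were seen, were Mrpl2, Mrps27, Mrpl42 and Mrps18b, each lower in FrD. The levels of 12 granulocyte and monocyte genes summed to 46.5 to 74802 CPM in WT FrD, against 57.6 to 871 CPM in WT FrC, with mouse 3 highest; none of the 12 passed the test. The 10 erythroid genes summed to 147 to 32753 CPM in WT FrD, against 1138 to 6845 CPM in WT FrC, mouse 3 again highest, and the 12 proliferation genes to 4945 to 7747 CPM, against 8728 to 9346 CPM, with none of the 12 called. The 6 plasma cell genes summed to 1082 to 1406 CPM in WT FrD, against 915 to 10614 CPM in WT FrC, and Tnfrsf17 and Jchain fell. The part of these genes in the member changes was not tested.

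Level ranges that did not overlap were also counted, as a description. Of the 77 tested members, 11 had non-overlapping ranges in WT FrD and FrC, against 12% of all genes. Mrpl43 was the 1 higher in FrD (2.71% of all genes) and 10 were lower (9.3%). Besides Mrpl12 and Mrps18a, the lower ones included Mrpl2, with 127, 80.1, 88.8, 58.7 and 59.3 CPM in WT FrD against 189, 197, 197, 166 and 165 CPM in WT FrC. Mrps18b, another of them, had 38.3, 47.5, 1.10, 42.7 and 19.5 CPM in WT FrD against 86.0, 110.5, 95.7, 73.3 and 50.9 CPM in WT FrC. Both were named after their values were seen, and neither passed the test over all 10 libraries.

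From FrB to FrC in WT cells no member was called by edgeR, none had an unadjusted p under 0.05, and DESeq2 called none, against 0.166% of all genes called. The median member changed by 0.09 on the log2 scale, against 0.01 for all genes, with 51 of 77 above 0. Mrps9, a small subunit protein, had ranges that did not overlap, the 1 member so (7.54% of all genes). It had 213, 235, 224, 209 and 219 CPM in WT FrC, against 137, 167, 147, 177 and 151 CPM in WT FrB; it was named after its values were seen.

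From FrD to FrE in WT cells Mrpl20 fell, 1 of 77 members against 5.32% of all genes. Mrpl20 (chr4:155802878-155809975, plus strand), a large subunit protein that binds ribosomal RNA early in assembly in bacteria, had 190.1, 213, 154, 128 and 106 CPM in WT FrE, against 202, 172, 739, 316 and 378 CPM in WT FrD. It was lower in FrE in 4 of 5 mice, the groups overlapped, and mouse 3 was far above the other 4 in FrD. The log2 fold change was -1.37 ± 0.37 (edgeR adjusted p = 0.0338), and with the mouse as a replicate block -1.22 (adjusted p = 0.102). Its call was lost without mouse 1, 3, 6 or 7 (edgeR adjusted p 0.0551 to 0.185), and was -0.69 without mouse 3. The median member changed by -0.16, against 0.01 for all genes, and 12 had an unadjusted p under 0.05. Without the low-complexity libraries Mrpl20 was at -0.65 (edgeR adjusted p = 0.106), and Mrpl34 (-0.91, 0.0118) and Mrpl37 (-0.96, 0.0343), both large subunit genes named after their values were seen, were called lower in FrE, against 8.9% of all genes. DESeq2 called 5 members, against 14.2% of all genes: Mrpl20, Mrpl18 and Mrpl34 lower and Mrps16 and Mrps31 higher, of which the last 4 were named after their values were seen. The 12 proliferation genes summed to 1109 to 3909 CPM in WT FrE, against 4945 to 7747 CPM in WT FrD, and 6 of the 12 fell. The 6 plasma cell genes summed to 1098 to 23428 CPM in WT FrE, against 1082 to 1406 CPM in WT FrD, and Jchain (9.50 on the log2 scale), Tnfrsf17 (8.82) and Xbp1 (1.45) rose. The part of these genes in the change of Mrpl20 was not tested.

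**Figure D4:**
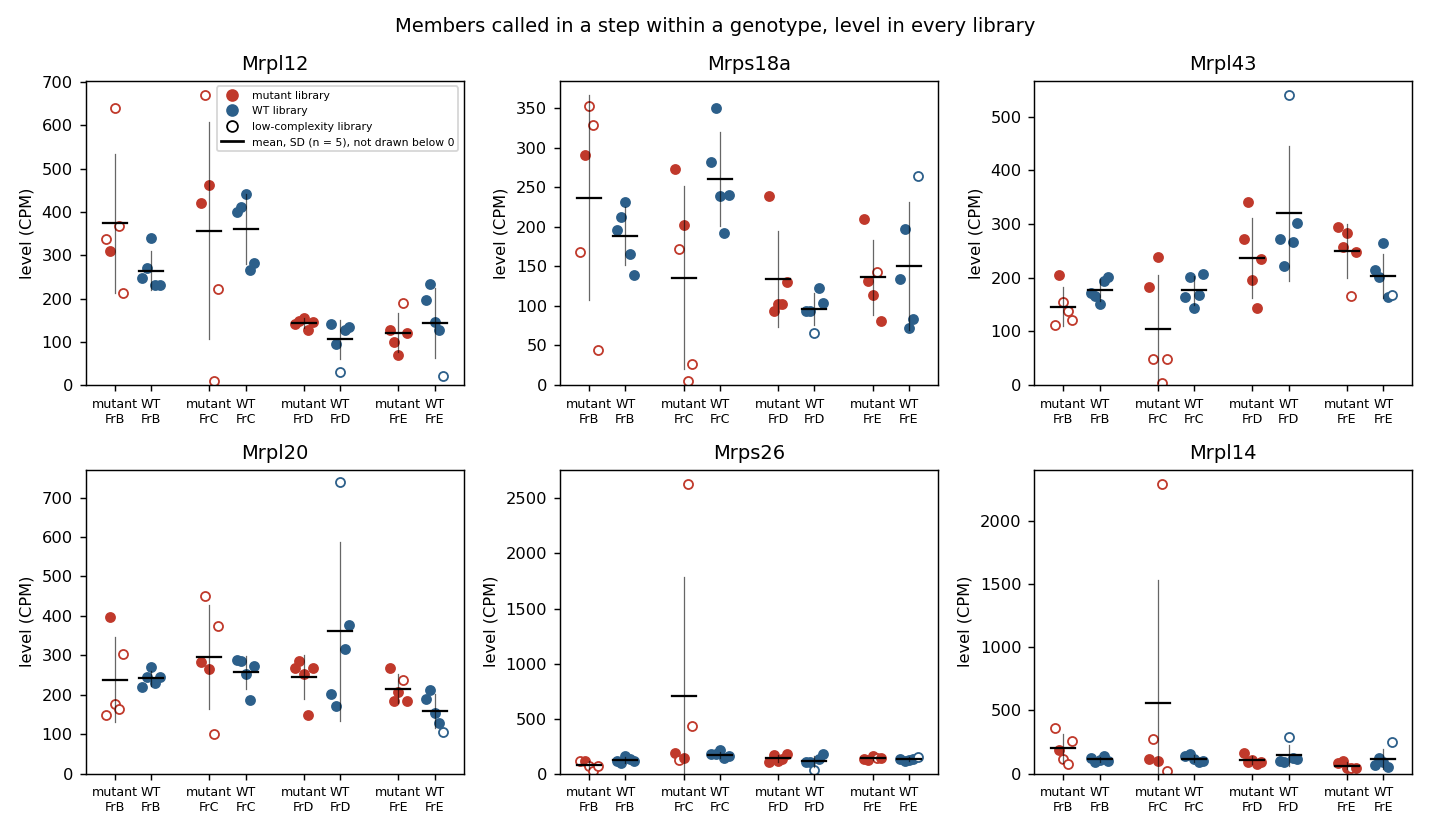
CPM of Mrpl12, Mrps18a, Mrpl43, Mrpl20, Mrps26 and Mrpl14 in every library, by fraction and genotype, with the mean and SD of 5 libraries; open circles are low-complexity libraries. Mrpl12 lies lower in FrD than in FrC in both genotypes apart from 1 mutant FrC circle at 9.29 CPM, and the highest Mrps26 and Mrpl14 points, 2629 and 2289 CPM, are 1 library, mutant FrC mouse 9.

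Between mutant and WT cells no mitochondrial ribosomal protein gene was called by edgeR in FrB, FrC, FrD or FrE (0 of 77 each) or over the 4 fractions (0 of 78). Of all genes tested 7.37% were called in FrB, 0% in FrC, 0.00996% in FrD, 0% in FrE and 0.631% over the fractions. Members with an unadjusted p under 0.05 numbered 6 in FrB, 5 in FrC, 4 in FrD, 3 in FrE and 5 over the fractions. DESeq2 called 2 members in FrB (against 19.1% of all genes), 1 in FrC (11.9%; Mrpl52, named after its values were seen), 0 in FrD, 0 in FrE and 2 over the fractions (6.56%). With the genotype contrasts taken from 1 fit of all 40 libraries, edgeR called 4 in FrC, against 5.06% of all genes, and 0 in the other fractions; these were Mrps26, Mrpl14, Mrps21 and Mrpl57, the last 2 named after their values were seen. The median log2 fold change of the members was -0.37 in FrB, -0.24 in FrC, -0.16 in FrD and -0.02 in FrE, against 0.11, 0.09, -0.07 and -0.10 for all genes. With single mice left out the median kept its sign in FrB (-0.50 to -0.22), FrC (-0.33 to -0.04) and FrD (-0.30 to -0.09), but not in FrE (-0.17 to 0.12), where it was above 0 without WT mouse 2 (0.12), mutant mouse 9 (0.04) or mutant mouse 10 (0.05). Below 0 were 50, 53, 48 and 43 of the 77. Without the low-complexity libraries the median in FrB was 0.24, against -0.16 for all genes, with 1 mutant library left, and in FrC it was 0.03, with 2 left. In FrD it was -0.14 without the WT library of mouse 3. The FrB value compares a single mutant library, that of mouse 5, which has the highest summed member level of the group.

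In FrB the members of lowest p were Mrpl33 and Mrpl14, both large subunit genes. Mrpl33 had 222, 168, 141, 267 and 189 CPM in mutant FrB, against 85.8, 82.5, 112, 153 and 108 CPM in WT FrB. The ranges overlapped through 1 library of each genotype. The log2 fold change was 1.17 ± 0.37 (edgeR adjusted p = 0.0708; DESeq2 1.29, adjusted p = 0.00855). Mrpl14, at the face between the subunits (chr17:45686322-45698495, plus strand, antisense to Tmem63b), had 365, 186, 115, 80.0 and 257 CPM in mutant FrB, against 123, 94.7, 106, 142 and 99.4 CPM in WT FrB. Its log2 fold change was 1.09 ± 0.42 (edgeR adjusted p = 0.128; DESeq2 adjusted p = 0.0433). Without mutant mouse 5, whose FrB library is the 1 not of low complexity, edgeR called 4 members, Mrpl33 higher and Mrpl46, Mrpl50 and Mrpl55 lower in mutant cells (18% of all genes were called), and without mutant mouse 8 it called Mrpl33 (9.49%). The last 3 were named after their values were seen.

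In FrB the 1 tested member with non-overlapping ranges was Mrps2, a small subunit gene named after its values were seen (8.27% of all genes were lower without overlap, and 12.7% in either direction). It had 5.90, 40.8, 4.42, 0.530 and 49.1 CPM in mutant FrB, against 68.0, 91.7, 74.8, 53.1 and 50.2 CPM in WT FrB. In mutant FrB the granulocyte and monocyte genes summed to 2548 to 57969 CPM, against 125 to 11514 CPM in WT FrB, and 7 immature B cell genes to 708 to 2430 CPM, against 7431 to 12092 CPM. The 6 plasma cell genes summed to 860 to 12476 CPM in mutant FrB, against 17459 to 52648 CPM in WT FrB, without overlap. The 6 B lineage genes summed to 2023 to 4395 CPM, against 6607 to 8165 CPM, also without overlap. They did not move together: edgeR called Cd79a (-2.22 on the log2 scale) and Cd79b (-1.47) lower but Ebf1 (1.64) higher in mutant FrB. The pro-B cell genes Rag1 and Vpreb1 and the proliferation genes Top2a, Mki67, Mcm2 and Mcm5 were also called higher there. No gene of either list was called lower. The part of these genes in the member levels was not tested.

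In FrC the members of lowest p were Mrps26 and Mrpl14, and both rest on mutant mouse 9. Mrps26 (chr2:130563742-130568695, plus strand), a small subunit gene, had 186, 124, 139.5, 2629 and 431 CPM in mutant FrC, against 177, 182, 211, 141 and 158 CPM in WT FrC. Its log2 fold change was 4.60 ± 1.45 (edgeR adjusted p = 0.271) and 0.73 without mouse 9. Mrpl14 had 118, 274, 103, 2289 and 17.7 CPM in mutant FrC, against 137, 156, 116, 89.4 and 98.8 CPM in WT FrC. Its log2 fold change was 4.91 ± 1.59 (edgeR adjusted p = 0.271) and 0.33 without mouse 9. That library's TMM factor was 0.177, which multiplies its CPM upward in the fit beyond the values given here. Mrpl48, a large subunit gene named after its values were seen, was the 1 tested member with non-overlapping ranges, at 112, 24.4, 109, 3.48 and 68.8 CPM in mutant FrC against 129, 202, 125, 117 and 114 CPM in WT FrC; 2.32% of all genes were so placed.

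In FrD and FrE no tested member had non-overlapping ranges, against 2.19% and 1.9% of all genes. In FrD the lowest p belonged to Mrps6, a small subunit protein that binds ribosomal RNA, which had 26.7, 4.21, 13.2, 27.2 and 22.9 CPM in mutant FrD, against 42.7, 21.1, 168, 23.0 and 25.7 CPM in WT FrD. Its log2 fold change was -2.002 ± 0.80 (edgeR adjusted p = 0.898) and -0.69 without WT mouse 3. Mrps25, also of the small subunit, had 40.7, 29.4, 33.9, 27.1 and 54.7 CPM in mutant FrD, against 48.5, 80.0, 156, 43.7 and 22.8 CPM in WT FrD. Its log2 fold change was -1.27 (edgeR adjusted p = 0.929) and -0.49 without WT mouse 3. In FrE Mrps25 had 57.8, 36.8, 12.3, 47.5 and 11.2 CPM in mutant libraries, against 70.6, 92.2, 61.0, 37.4 and 98.9 CPM in WT libraries, a log2 fold change of -1.41 ± 0.62 (edgeR adjusted p = 0.919). Mrpl49, a large subunit gene, had 122, 142, 165, 142 and 298 CPM in mutant FrE, against 261, 197, 245, 119.8 and 737 CPM in WT FrE, a log2 fold change of -1.15 ± 0.51 (edgeR adjusted p = 0.919).

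Over the 4 fractions Mrpl49 and Mrpl33 had the lowest p. Mrpl49 stood lower in mutant cells, with a log2 fold change of -0.64 ± 0.19 (edgeR adjusted p = 0.129), and Mrpl33 higher, at 0.48 ± 0.17 (edgeR adjusted p = 0.171). DESeq2 called Mrpl49 (-0.66) and Mrpl10 (-0.35, named after its values were seen) lower. The median member changed by -0.16, against 0.04 for all genes, with 60 of 78 below 0.

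In mutant cells Mrps26 and Mrpl14 were called lower in FrD than in FrC, 2 of 77 members against 2.97% of all genes (2.56% lower). Mrps26 had 107, 167, 119, 131 and 177 CPM in mutant FrD, against 186, 124, 139.5, 2629 and 431 CPM in mutant FrC. Mrpl14 had 162, 89.3, 108, 78.2 and 93.6 CPM in mutant FrD, against 118, 274, 103, 2289 and 17.7 CPM in mutant FrC. The FrD level was the lower in 4 of 5 mice for Mrps26 but in 2 of 5 for Mrpl14. The ranges overlapped for both, and 1 library, mouse 9 in FrC, stood apart. The log2 fold changes were -5.13 ± 1.15 for Mrps26 (edgeR adjusted p = 0.0310) and -5.27 ± 1.33 for Mrpl14 (0.0387), with a TMM factor of 0.139 for mouse 9 in FrC. Without mouse 9 they were -0.88 (edgeR adjusted p = 0.591) and -0.26 (0.955). With the mouse as a replicate block they were -2.72 (0.388) and -2.24 (0.612), and leaving out any other mouse gave adjusted p of 0.0528 to 0.114 for Mrps26 and 0.0693 to 0.139 for Mrpl14.

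DESeq2 gave no adjusted p for either gene and called Mrpl12 and Mrpl20 lower in mutant FrD, against 6.1% of all genes. Mrpl12 had 141, 149, 156, 127 and 146 CPM in mutant FrD, against 420.5, 670, 463, 9.29 and 222.5 CPM in mutant FrC. In 4 of 5 mice, all but mouse 9, the FrD value was the lower, with a log2 fold change of -1.55 ± 0.51 (edgeR adjusted p = 0.0910). Without the low-complexity libraries, which leaves mutant FrC with mice 4 and 8, Mrpl12 was the 1 member called, at -1.58 ± 0.28 (edgeR adjusted p = 0.0140), against 0.918% of all genes. The difference between the mutant and WT steps of Mrpl12 was 0.01 ± 0.64 on the log2 scale. Mrps18a changed by -0.15 in mutant cells and Mrpl43 by 1.03 ± 0.48 (edgeR adjusted p = 0.300); their step differences were 1.04 ± 0.70 (adjusted p = 0.615) and -0.19 ± 0.56 (0.973).

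No member was called in mutant cells between FrB and FrC or between FrD and FrE, where no gene at all was called by edgeR (0% each) and DESeq2 called no member either. Members with an unadjusted p under 0.05 numbered 4 from FrB to FrC and 0 from FrD to FrE. From FrB to FrC the median member changed by 0.37, against 0.10 for all genes. Mrps26 was higher in FrC in 5 of 5 mutant mice, at 186, 124, 139.5, 2629 and 431 CPM in mutant FrC against 111, 112, 74.7, 28.3 and 72.5 CPM in mutant FrB. The ranges did not overlap, as for 0.786% of all genes, and its log2 fold change was 5.59 (edgeR adjusted p = 0.0762), with mouse 9 far above the other 4 in FrC. Without mouse 9 it was 1.24 (edgeR adjusted p = 0.500), with the mouse as a replicate block 3.11 (0.548), and without the low-complexity libraries 0.52. Without mouse 5, but with mouse 9, it was called (5.31, edgeR adjusted p = 0.0253), with 1.74% of all genes.

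The mutant and WT steps were then set against each other in 1 fit of all 40 libraries. From FrB to FrC the step of Mrps26 was larger in mutant cells by 5.26 ± 1.11 on the log2 scale (edgeR adjusted p = 0.0395), 1 of 77 members against 0.524% of all genes. From FrC to FrD 4 members had lower steps in mutant than in WT cells, against 2.98% of all genes (2.71% lower). They were Mrps26 (-4.76 ± 1.10, edgeR adjusted p = 0.0242), Mrpl14 (-6.00 ± 1.38, 0.0242), Mrps21 (-3.43 ± 0.93, 0.0337) and Mrpl20 (-1.94 ± 0.56, 0.0421). Mrps21, a small subunit gene (chr3:95862634-95871519, minus strand), had 206, 323, 164, 104 and 161 CPM in mutant FrD, against 145, 327, 181, 803 and 76.2 CPM in mutant FrC. In WT cells it had 128, 123, 158, 179 and 214 CPM in FrD, against 156, 180.1, 133, 115 and 185 CPM in FrC. The mutant FrC library of mouse 9 was again the highest. For Mrpl20 the WT FrD library of mouse 3 (739 CPM) was highest and the mutant FrC library of mouse 9 (100.4 CPM) lowest.

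These step differences did not hold without mutant mouse 9, at 0.89 for Mrps26 from FrB to FrC, and at -0.49, -0.94, -0.25 and -1.43 for Mrps26, Mrpl14, Mrps21 and Mrpl20 from FrC to FrD (lowest edgeR adjusted p 0.365). Leaving out any 1 WT mouse ended the call of Mrps26 from FrB to FrC (0.145 to 0.172) and those of the 4 members from FrC to FrD (0.0565 to 0.328), apart from Mrpl14 without mouse 7 (0.0486). Leaving out mutant mouse 5 or 10 ended that of Mrpl20 (0.0646 and 0.0837). With the mouse as a replicate block none was called (0.854 from FrB to FrC, and 0.693 to 0.836 from FrC to FrD). From FrD to FrE no step difference was called for a member by edgeR or DESeq2, against 0.153% of all genes, and 3 had an unadjusted p under 0.05; the lowest p was that of Mrps5, at 2.74 ± 1.22 (edgeR adjusted p = 0.388).

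**Figure D5:**
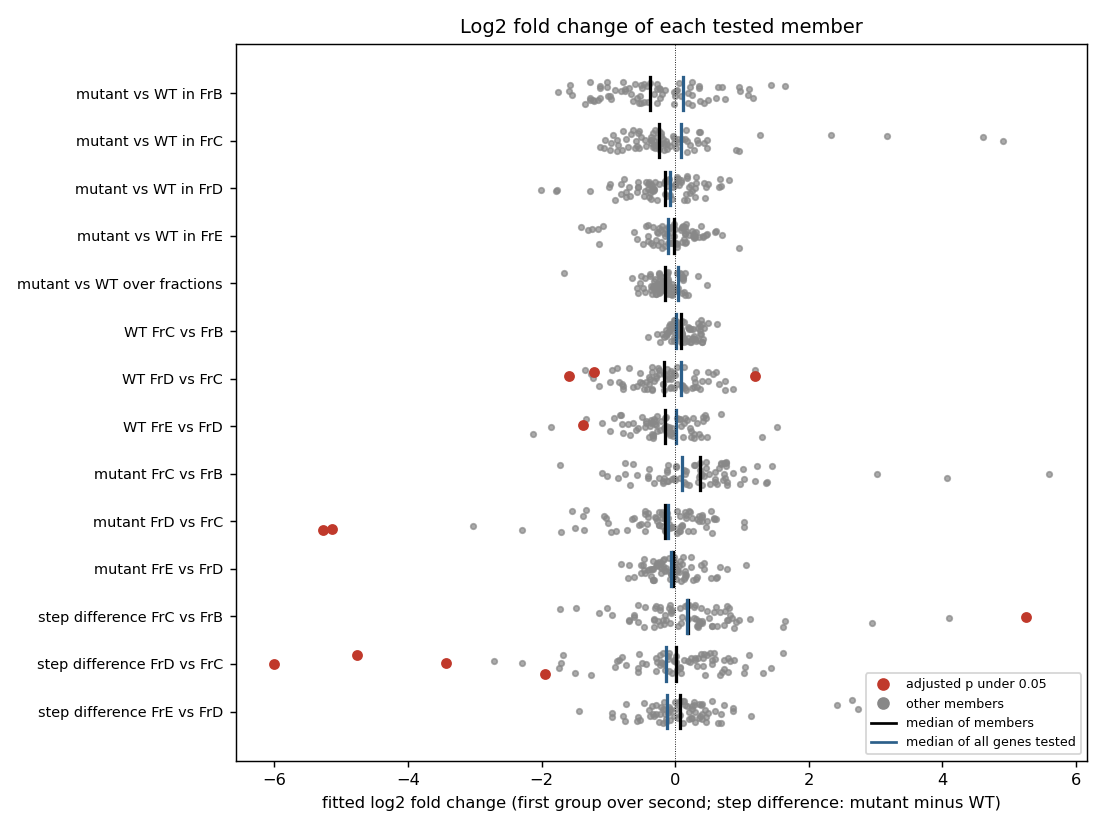
Fitted log2 fold change (horizontal axis, first group over second, or mutant minus WT for a step difference) of each tested member in 14 comparisons; red points have an edgeR adjusted p under 0.05, and black and blue ticks are the medians of members and of all genes. Red points beyond -3 or 3 are Mrps26, Mrpl14 and Mrps21 in comparisons that use mutant FrC, and the other red points are 3 in WT FrD against FrC, Mrpl20 in WT FrE against FrD, and Mrpl20 in the step difference from FrC to FrD.

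Genes that build, supply or use the mitochondrial ribosome were read in the same fits. In WT FrD against FrC, 2 of 29 assembly and rRNA modification genes fell, 1 of 14 translation factors, 0 of 22 transcription and RNA handling genes, 2 of 9 nuclear regulators and 0 of 5 other subunits of the mitochondrial ribosome, and none rose, where 2.28% of all genes fell and 2.95% rose. Their medians were -0.51, -0.63, 0.10, 0.21 and -0.24 on the log2 scale. C1qbp, a matrix protein needed for mitochondrial translation, had 140.3, 121, 76.9, 121 and 83.0 CPM in WT FrD, against 558, 669, 628.5, 368 and 450.3 CPM in WT FrC (log2 fold change -2.08 ± 0.44, edgeR adjusted p = 0.00710). Gfm1, the mitochondrial elongation factor G, had 12.01, 12.9, 0.628, 16.4 and 22.5 CPM in WT FrD, against 123, 51.1, 116.5, 100.0 and 78.9 CPM in WT FrC (-2.69 ± 0.73, edgeR adjusted p = 0.0298). Myc, a transcription factor of growth and ribosome production, had 0.365, 15.5, 0.785, 4.39 and 0.126 CPM in WT FrD, against 434, 264, 333.5, 321 and 180.3 CPM in WT FrC (-6.02 ± 0.98, edgeR adjusted p = 0.000763). The ranges of all 3 were apart. With the mouse as a replicate block C1qbp and Myc were still called and Gfm1 was not. With single mice left out Myc kept its call each time, C1qbp lost it once (edgeR adjusted p = 0.0567 without mouse 1) and Gfm1 4 times (up to 0.160). Mrm3, a methyltransferase of mitochondrial ribosomal RNA, also fell (-5.21 ± 1.16, edgeR adjusted p = 0.00924), as it did with the block, but not without mouse 1 or 2. Ppargc1b, a coactivator of nuclear genes for mitochondria, was at 0 in every WT FrD library (edgeR adjusted p = 0.0384) and was not called with the block or with any mouse left out.

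In WT FrE against FrD, Mrm3 (4.37), Rbfa (2.06), Rexo2 (1.29) and Myc (3.73) rose and Gabpb1 (-1.26), a subunit of the ETS factor GABP, fell. With the mouse as a replicate block Rbfa and Gabpb1 were no longer called, and each of these calls was lost without 2 or more of the single mice. Myc had 56.6, 28.8, 86.2, 118 and 3.49 CPM in WT FrE. In mutant FrD against FrC, Myc fell by 3.13 on the log2 scale (edgeR adjusted p = 0.0399), with 33.2, 11.7, 13.3, 20.6 and 30.4 CPM in FrD against 332, 15.5, 301, 2.32 and 201 CPM in FrC. Ssbp1, the mitochondrial single-stranded DNA binding protein, had 284, 282, 173, 168 and 172 CPM in mutant FrD, against 217, 244, 205, 2965 and 104 CPM in mutant FrC. It was higher in FrD in 3 of 5 mice; its log2 fold change of -4.63 (edgeR adjusted p = 0.0387) became 0.15 (0.966) without mouse 9. Neither gene was called with the mouse as a replicate block or with any 1 mouse left out. Between mutant and WT cells Pprc1, a coactivator, was higher (2.98) and Nsun4, a methyltransferase of the small subunit's RNA, lower (-2.94) in FrB; Nsun4 lost its call in 8 and Pprc1 in 4 of the 10 fits that left out 1 mouse, and neither was called without the low-complexity libraries. Over the fractions, with each mouse's counts summed, Rexo2, a mitochondrial oligoribonuclease, was lower in mutant cells (-1.09 ± 0.21, edgeR adjusted p = 0.0247), the 1 gene called of these lists there; leaving out WT mouse 2, 3 or 6 or mutant mouse 10 ended the call (up to 0.0860). Among the step differences Ssbp1 alone of these lists was called, at 5.47 from FrB to FrC and -4.96 from FrC to FrD. Without mutant mouse 9, whose FrC library holds the 2965 CPM, they were 0.97 (lowest edgeR adjusted p 0.729) and -0.13, neither called, and with the mouse as a replicate block 2.87 (0.853) and -1.90 (0.866).

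With ERCC spike-in counts in place of endogenous counts as the scale, the members stood lower in FrD than in FrC in both genotypes. Their summed count per ERCC count was 17.0 ± 12.5 in FrB, 40.8 ± 38.8 in FrC, 4.41 ± 1.73 in FrD and 3.27 ± 1.66 in FrE of mutant mice (SD, n = 5). The highest mutant FrC values, 68.0 and 92.4, were those of mice 5 and 9, low-complexity libraries with 896 and 125 ERCC counts. Mice 4, 8 and 10 had 33.3, 4.74 and 5.37 in FrC, which overlap the mutant FrD range of 2.80 to 7.09. In WT mice the summed count per ERCC count was 12.3 ± 6.46 in FrB, 22.8 ± 13.2 in FrC, 3.75 ± 2.03 in FrD and 4.00 ± 1.79 in FrE. WT values split by mouse, at 27.6, 31.9 and 37.1 in FrC of mice 1, 2 and 3, against 8.32 and 9.32 in mice 6 and 7. In WT FrB they were 15.2, 18.3 and 17.4 against 5.47 and 5.27, and the cause was not tested. On this scale 71 of 77 members were lower in WT FrD than in FrC, against 57.7% of all genes. All 77 had log2 fold changes below 0, with a median of -2.80 against -2.39 for all genes, so Mrpl43, higher relative to other transcripts, stood at -1.10, and Mrpl12 at -4.33. In mutant FrD against FrC 32 members were lower, against 28.5% of all genes, with a median of -2.35 against -2.29.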

How the data were processed

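RNA-seq of sorted B cell fractions was analysed from the gene counts the authors deposited, 1 column per library. Per the submitters' processing notes, the build was mm10 and the tools were HISAT2 2.1.0, Subread featureCounts 1.4.6 and DESeq2; annotation release and strand setting are not given there. The 22050 features comprised 21958 endogenous genes and 92 ERCC spike-ins, which were kept out of library sizes. CPM was computed per 1000000 endogenous counts, exon length and coordinates came from GENCODE M21 (GRCm38), and promoters from RefSeq (GRCm38.p6).

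Tests were edgeR 4.0.16 quasi-likelihood fits (robust, TMM, filterByExpr with a minimum count of 10 and total of 15; R 4.3.3, limma 3.58.1) over all genes, with Benjamini-Hochberg adjustment over all genes tested and a threshold of 0.05. Genotype was tested within each fraction and over fractions on counts summed to 1 column per mouse, so that the mouse is the replicate, steps within a genotype, and step differences in 1 fit of 40 libraries. The edgeR procedure was run on simulated counts for mutant against WT in FrB and FrD only. Steps, step differences and low-complexity libraries were not simulated, nor were changes as small as most of those given here. Alternatives were DESeq2 1.42.0, median-of-ratios factors, no filter, ERCC scaling, the second index as a covariate, a joint fit, the mouse as a replicate block, each mouse left out, and, added after seeing the data, low-complexity libraries left out. Same-numbered libraries come from the same mouse per the labels, which pairs the steps; the correlation of their deviations from group means over 8501 genes had medians of -0.02 to 0.09 across the 6 steps. Groups were taken from the labels, with 5 mice each. Each mouse gave 1 library per fraction, so p-values measure the spread between libraries, where mouse and library quality cannot be told apart. The main fits of steps and step differences held no mouse term. Figures used Python 3.11.15, numpy 2.4.6, pandas 2.3.3 and matplotlib 3.10.9.

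The members and lists were chosen with earlier results of these data known. Members named were, per genotype effect, up to 5 called per direction or else the 2 of lowest p; up to 4 called per direction in WT FrD against FrC and up to 2 in other steps; up to 3 called per step difference or else the 1 of lowest p; the 3 highest and 3 lowest per kb; the Mrps18 paralogs; and, per other list, the called gene of lowest p. Exceptions are marked in the text, and further genes of the other lists were named after their values were seen.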

Additional observations from a re-analysis of the deposited data

Results flagged for a closer look

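Within groups of 5 libraries, 20 values of 160 group and measure combinations stood apart from the other 4 by Dixon's criterion. Of these, 16 were high and 4 low, and 11 of the 20 lay in low-complexity libraries. By chance the criterion flags about 1 in 20 groups, but this count cannot be set against that rate. Many of the 19 genes examined were named by their p in these same data, and values of 1 library are not independent. The summed level of the members was high in mutant FrB of mouse 5 (13285 CPM), the 1 mutant FrB library not of low complexity.

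Mutant FrC of mouse 9 was high for Mrps26 (2629 CPM) and Mrpl14 (2289 CPM) and low for Mrps5 (4.06 CPM) and Mrpl34 (3.48 CPM). WT FrD of mouse 3 was high for Mrpl43 (539 CPM), Mrpl33 (444 CPM), Mrpl14 (291 CPM), Mrps6 (168 CPM) and Mrps5 (154 CPM). WT FrE of mouse 7 was high for Mrpl49 (737 CPM). In mutant FrE, mouse 9 had 0 CPM of Mrpl23, where the library holds 42111 counts in all.

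The others lay in libraries that are not of low complexity. In mutant FrE, mouse 10 was high for Mrpl49 (298 CPM) and Mrps5 (42.7 CPM). In mutant FrD, mouse 4 was high for Mrps18a (239 CPM) and mouse 9 low for Mrpl20 (149.5 CPM). In mutant FrB, mouse 5 was high for Mrpl23 (16.2 CPM) and for Mrpl53 (0.0599 CPM, the other 4 at 0). In WT FrB, mouse 6 was high for Mrps6 (63.8 CPM) and mouse 2 for Mrpl53 (0.829 CPM).

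Steps differed between the genotypes, by the test of the difference itself, for Mrps26 from FrB to FrC (5.26 on the log2 scale, mutant minus WT), and from FrC to FrD for Mrps26 (-4.76), Mrpl14 (-6.00), Mrps21 (-3.43) and Mrpl20 (-1.94). Without mutant mouse 9, all 4 of its libraries left out, none was called: Mrps26 was at 0.89 from FrB to FrC, and Mrps26, Mrpl14 and Mrps21 at -0.49, -0.94 and -0.25 from FrC to FrD. Mrpl20 was at -1.43 without mutant mouse 9 and at -1.24 without WT mouse 3, and its call was also lost without any other WT mouse or without mutant mouse 5 or 10. Without any 1 WT mouse the other calls were lost too, apart from Mrpl14 without mouse 7.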

How the results depend on the processing

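Counts of called members moved with the processing as follows. DESeq2 called 2 in mutant against WT FrB, 1 in FrC, 2 over fractions, 5 in WT FrE against FrD, and 0 and 1 for the step differences from FrB to FrC and from FrC to FrD. The joint fit of all libraries called 4 in mutant against WT FrC, where 5.06% of all genes were called. ERCC scaling called 71 in WT FrD against FrC, 0 in WT FrE against FrD, 32 in mutant FrD against FrC and 0 for both step differences, and put Mrpl43 at -1.10 in WT FrD against FrC. The mouse as a replicate block called 0 in each of WT FrD against FrC, WT FrE against FrD, mutant FrD against FrC and both step differences, and changed no other count. No filter called 0 in mutant FrD against FrC, and 0 and 2 for the step differences. Without the low-complexity libraries the counts were 7 in WT FrD against FrC, 2 in WT FrE against FrD, 1 in mutant FrD against FrC and 0 for both step differences; Mrpl14 changed sign in mutant FrD against FrC (0.0080) and in mutant against WT FrC (-0.11), as did Mrps26 in mutant against WT FrC (-0.0855), and Mrps26 (0.055) and Mrps21 (0.0573) in the step difference from FrC to FrD.

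With each mouse left out in turn the counts ran from 0 to 4 in mutant against WT FrB, 0 to 3 in WT FrD against FrC, 0 to 2 in WT FrE against FrD, 0 to 1 in mutant FrC against FrB, 0 to 0 in mutant FrD against FrC, and 0 to 1 and 0 to 5 for the step differences from FrB to FrC and from FrC to FrD. Shares of all genes are given only without mutant mouse 5 (18%) or 8 (9.49%) in mutant against WT FrB. In mutant FrC against FrB the share is given without mouse 5 (1.74%). The other leave-out counts have no share of all genes beside them. Nor do the counts with no filter or the DESeq2 step differences, so these cannot be read against all genes. The second index as a covariate and median-of-ratios factors moved no count by over 1.5 times. Mrps18a was not called in WT FrD against FrC with median-of-ratios factors or with no filter. Among single genes, 221 values stayed on their side of the threshold with the same sign, 85 lost a call, 7 gained one and 6 changed sign; the cause was not tested. The 42111 counts of mutant FrE mouse 9 limit what its low members can show.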
